A study of Mus musculus with 12 samples.

Results

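The BCL2 family sets the threshold for mitochondrial apoptosis. Anti-apoptotic members (BCL2, BCL-XL and MCL1) hold in check the pore-forming members BAX and BAK, which otherwise open the outer mitochondrial membrane and release cytochrome c to the caspases. BH3-only members carry stress signals to both: some activate the pore formers directly, and others only occupy the anti-apoptotic members. Acute myeloid leukaemia cells are known for their dependence on MCL1 and BCL2, and p53, which DNA damage activates, is a textbook transcriptional activator of Bax, Bbc3 and Pmaip1.

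Transcripts of 10 BCL2 family genes were followed through chemotherapy in mouse leukaemia cells. The 10 genes were chosen by symbol from the 24883 entries of each deposited gene table, with no threshold on their values: Bcl2, Bcl2l1 and Mcl1 (anti-apoptotic), Bax and Bak1 (pore-forming), and Bcl2l11, Bbc3, Pmaip1, Bid and Bad (BH3-only). All 12 mice carried leukaemia cells transgenic for MLL-AF9, a fusion oncogene of human acute myeloid leukaemia, and RNA came from GFP-positive cells sorted from their bone marrow. The mice received vehicle (n = 5), or the induction drugs doxorubicin, a topoisomerase poison, and cytarabine, a nucleoside analogue. Treated mice were sampled 3 days (iCT, n = 3) or 10 days (relapse, n = 4) after chemotherapy ended. Strain, age, the promoter that drives MLL-AF9, and the time at which vehicle mice were sampled are not stated in the labels. Each library came from 1 mouse, and p-values measure the spread between these mice.

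Levels are in FPKM, a fragment count divided by transcript length and by library size, which allows genes of different length to be compared. Differences between groups are on the log2(FPKM + 1) scale and were tested with limma over 11019 genes at an adjusted p of 0.05. Each member reached 1 FPKM in all 12 libraries, so 10 of 10 were tested. Implied depth ran from 361914 fragments in iCT mouse 1 to 8359793, with 1225254 or more in each library other than iCT mouse 1. In that shallow library Bbc3 rested on 2.0 implied fragments, Bcl2l11 on 4.5, Bad on 6.8 and Pmaip1 on 8.0. All 12 markers fixed for myeloid leukaemia, among them Ptprc, Itgam and Mpo, were above 0 in every library, but their levels moved: 3 of 12 fell and 1 rose in iCT against vehicle, and 3 rose in relapse against iCT.

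**Figure D1:**
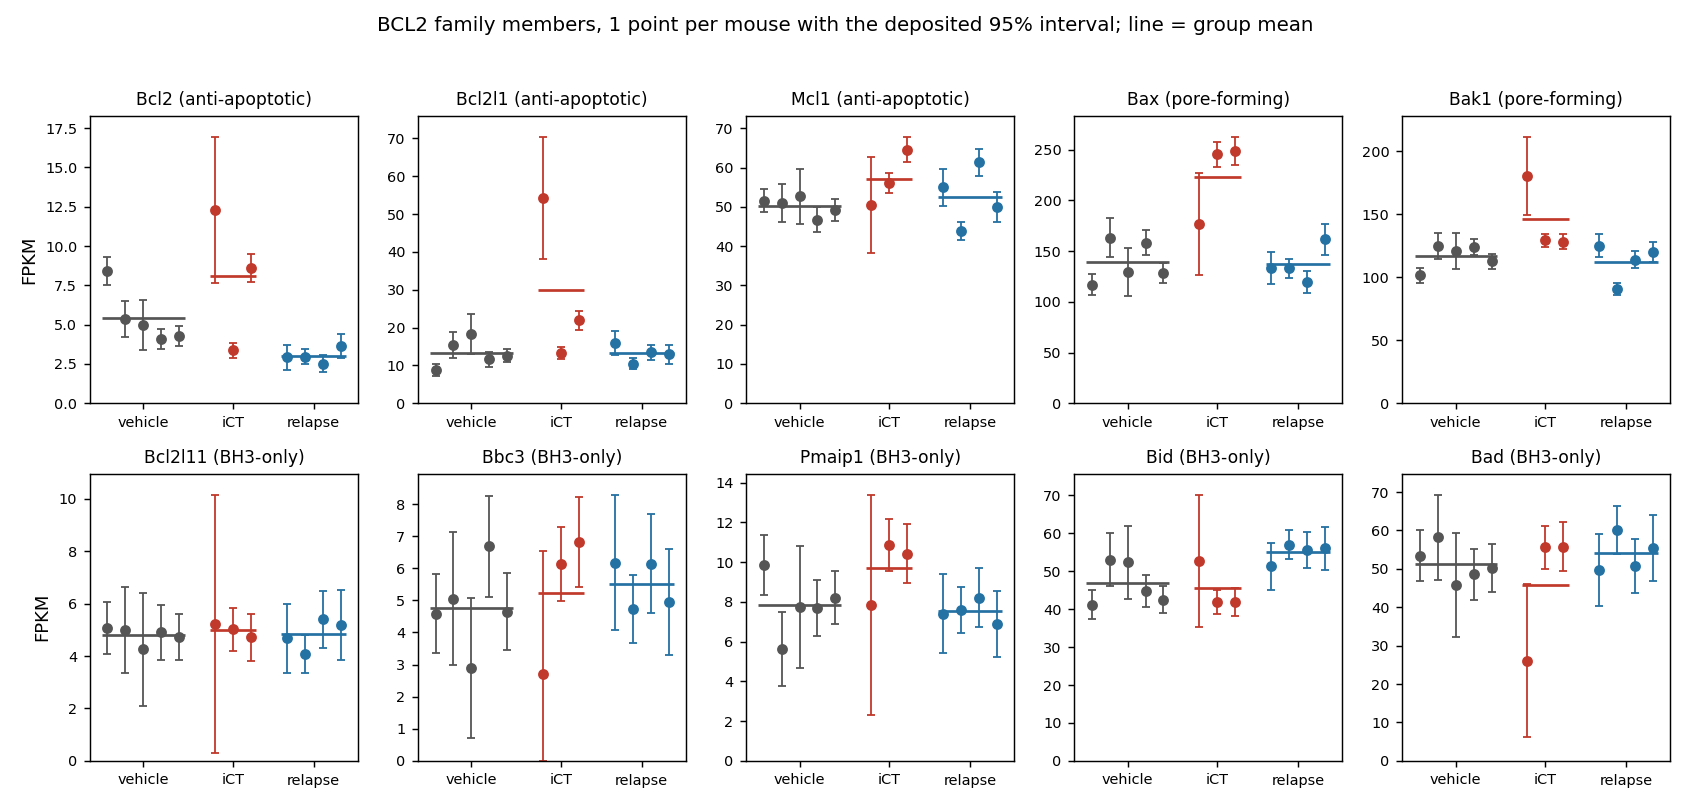
FPKM of the 10 members by group, 1 point per mouse with the deposited 95% interval and a line at the group mean; each panel has its own axis from 0. Bax in the 3 iCT mice (177 to 248 FPKM) lies above all vehicle and relapse mice, and the widest intervals belong to iCT mouse 1.

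The members fell into 3 tiers of transcript level. Over the 12 libraries the pore formers came first, Bax at a median of 145.8 FPKM and Bak1 at 123. Bax exceeded Bak1 in 11 of 12 libraries. Bad (52.1), Bid (51.8) and Mcl1 (51.3) formed the middle tier, and their order changed from library to library: Bad exceeded Bid in 7 of 12, and Bid exceeded Mcl1 in 4 of 12. Below them Bcl2l1 stood at 13.4 FPKM, with Mcl1 above it in 11 of 12 libraries. Pmaip1 (7.79), Bbc3 (5.004), Bcl2l11 (4.94) and Bcl2 (4.18) were the lowest, and the last 3 intermixed. Of the genes tested, 93.6% had a lower median than Bax, 83.2% a lower one than Mcl1 and 26.2% a lower one than Bcl2.

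iCT was compared with vehicle to ask how cells remaining 3 days after chemotherapy differed from untreated leukaemia. Bax was the 1 member of 10 that rose, and 0 fell. Over all genes tested 9.62% were called, 3.31% higher and 6.31% lower, so the members' share is near that of the whole table. The higher share of called genes was 34.4%, and 44.6% with median-of-ratios scaling, 48.0% with quantile normalization and 51.4% with length and GC trends removed. In 2 of 10 members, Bax and Bak1, every iCT mouse lay above every vehicle mouse, against 5.49% of all genes. At an unadjusted p under 0.05 these 2 and Bcl2l1 were higher (3 of 10, against 29.8% of genes in either direction, 10.6% higher and 19.2% lower). The F test over the 3 groups called 1 of 10 members, Bax, against 9.37% of genes. The median difference of the members was 0.23, against -0.08 over all genes.

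**Figure D2:**
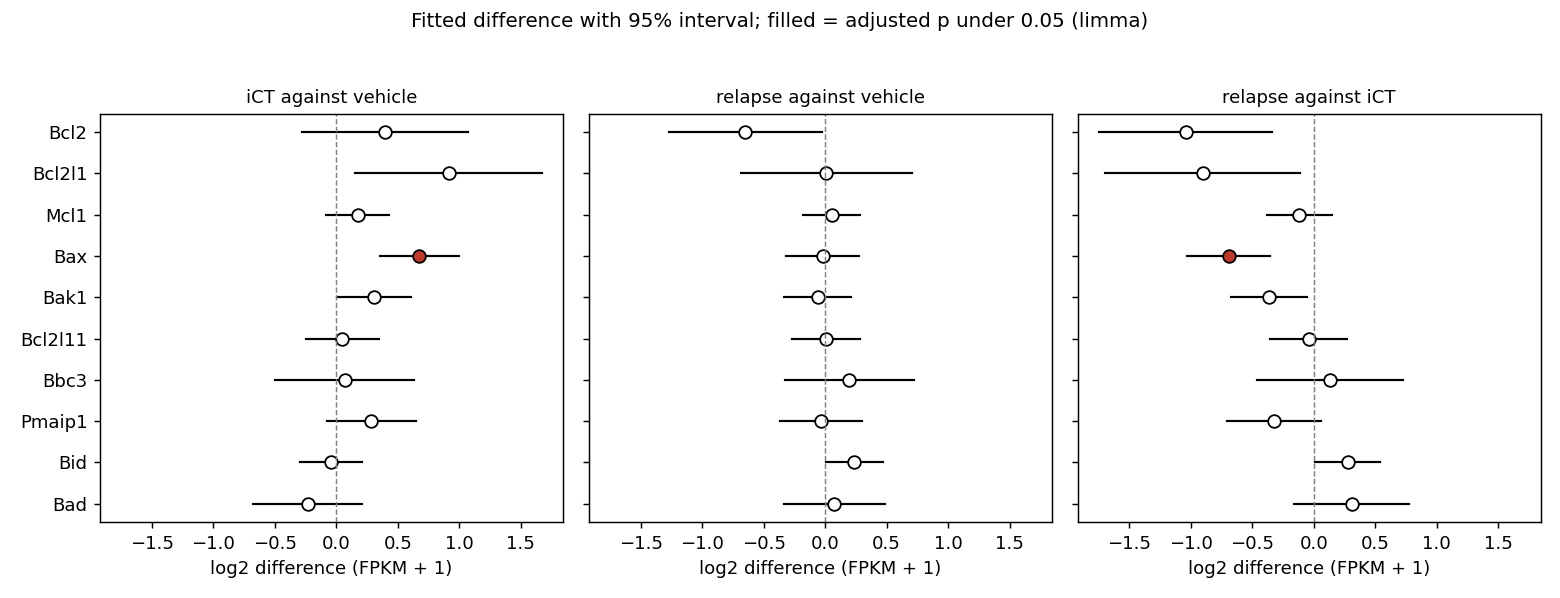
Fitted log2 difference of each member (points) with its 95% interval (lines) in the 3 comparisons; filled points passed an adjusted p of 0.05. Bax was filled in iCT against vehicle at 0.67 and in relapse against iCT at -0.69, and no member was filled in relapse against vehicle.

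Bax encodes the cytosolic pore former that moves to mitochondria when activated. The gene lies at chr7:45461695-45466898 on the minus strand of GRCm38. Its promoter is shown because p53 acts there in textbook accounts and Bax was the member that changed. The sequences are RefSeq's for GRCm38.p6, 250 bases before to 50 after the start site. Capitals mark the match to the p53 decamer consensus, of which p53 sites hold a pair. Bbc3, a p53 target whose level was not called, has several windows, and the first by position is given beside it.
Bax (chr7:45466849-45467148, minus strand): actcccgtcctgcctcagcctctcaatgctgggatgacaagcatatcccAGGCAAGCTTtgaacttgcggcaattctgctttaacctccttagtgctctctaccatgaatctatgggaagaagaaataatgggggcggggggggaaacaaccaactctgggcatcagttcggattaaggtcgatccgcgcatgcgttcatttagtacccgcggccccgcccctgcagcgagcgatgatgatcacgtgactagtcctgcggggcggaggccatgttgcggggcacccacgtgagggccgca
Bbc3 (chr7:16309333-16309632, plus strand): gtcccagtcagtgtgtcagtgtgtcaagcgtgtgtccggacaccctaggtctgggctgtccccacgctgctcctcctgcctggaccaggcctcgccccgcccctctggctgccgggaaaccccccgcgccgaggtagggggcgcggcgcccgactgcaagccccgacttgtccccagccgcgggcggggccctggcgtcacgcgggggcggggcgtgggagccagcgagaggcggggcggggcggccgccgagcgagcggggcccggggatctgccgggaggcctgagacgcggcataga
Both strands were searched. The Bax window held 1 decamer, AGGCAAGCTT, at bases -201 to -192 from the start site (chr7:45467090-45467099). It was the 1 match in 15 windows of the 9 members found in the promoter table. Of 32817 mouse promoters of this length, 8.36% held such a match. GC boxes (GGGCGG) numbered 3 in the Bax window and 5 in the Bbc3 window shown, with 4 and 7 in the other windows of Bbc3. Of all promoters 35.6% held at least 1 GC box. In the Bax window 0 of these boxes overlapped the decamer. A match of letters is a description and not a binding site.

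Bax measured 117, 163, 129, 158 and 128 FPKM in the vehicle mice. In iCT it measured 177, 245 and 248 FPKM, and in relapse 133, 133, 119.9 and 162. All 3 iCT mice were above all 9 others. The group means were 139 ± 20.3 (SD, n = 5), 223 ± 40.5 (n = 3) and 137 ± 17.6 FPKM (n = 4). By limma Bax rose by 0.67 in iCT against vehicle (SE 0.15, 95% interval 0.352 to 0.996, adjusted p = 0.0176), a 1.61-fold ratio of means. It fell by 0.69 from iCT to relapse (SE 0.16, adjusted p = 0.0176). Relapse and vehicle differed by -0.02 (95% interval -0.31 to 0.28, adjusted p = 0.976). The lowest iCT value came from the shallow library and had a deposited interval of 126 to 227 FPKM. Without that mouse the difference from vehicle was 0.83 (adjusted p = 0.00613). When only the 2 groups compared were fitted, the adjusted p was 0.0518 for iCT against vehicle and 0.0589 for relapse against iCT; without relapse mouse 3 the latter was 0.0503.

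Markers of the leukaemia and of other marrow cells moved in the same comparison. Of the 12 leukaemia markers 3 fell and 1 rose in iCT against vehicle, where 6.31% of all genes fell and 3.31% rose. Kit, which marks immature cells, measured 24.3 to 27.5 FPKM in vehicle, 5.60 to 8.72 in iCT and 26.9 to 39.4 in relapse. Cd34, likewise a marker of immature cells, measured 75.2 to 122, 22.3 to 30.1 and 109 to 149.6. Spi1 went the other way (226 to 277, 279 to 344 and 245 to 296). Hoxa9 was not lower in iCT (41.7 to 59.7, 55.8 to 75.8 and 49.8 to 66.5). Lyz2 measured 431 to 780, 201 to 434 and 460 to 646. Of the tissue macrophage markers 5 of 7 tested rose in iCT and 1 fell. Mrc1 and Cd5l were tested only because they were high in iCT, since too few other libraries reached 1 FPKM. Adgre1 measured 72.8 to 87.4 FPKM in vehicle and 14.2 to 31.8 in iCT. C1qa measured 1.91 to 6.78 FPKM in vehicle and 21.9 to 74.6 in iCT. The summed level was 155 to 285 FPKM in iCT, 142 to 186 in vehicle and 101 to 123 in relapse. In vehicle most of this sum came from Adgre1 and Vcam1. Marco was at 0 in every vehicle and relapse library, and Timd4 in every relapse library. All 6 osteoclast markers tested rose, but Dcstamp, Ocstamp and Atp6v0d2 were under 1 FPKM in every vehicle and relapse library. These entered the test only by being high in iCT, so the direction of their difference was fixed by the filter. The sums were 259 to 990 FPKM in iCT, 22.8 to 75.6 in vehicle and 43.2 to 165 in relapse. Calcr, Oscar and Dcstamp were at 0 in every vehicle library, and the lowest iCT value of Calcr and Oscar was also 0. The sum of 990 belonged to iCT mouse 1, and those of iCT mice 2 and 3 (259 and 336) were also above all vehicle mice. Of the mature neutrophil markers 2 of 9 rose (sums of 14231 to 18607 FPKM in iCT, 3804 to 14472 in vehicle and 6500 to 15314 in relapse). Of the erythroid markers 4 of 6 fell (21.4 to 24.2, 24.7 to 501 and 72.5 to 211). The part of these cells in the differences in Bax and in the called genes named further on was not tested. In bulk RNA, a change in the number of cells of a type and a change in RNA per cell cannot be told apart.

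Bak1 encodes the pore former that resides on the mitochondrial outer membrane (chr17:27019812-27028626). It measured 102, 125, 121, 124 and 113 FPKM in vehicle, 180.3, 129 and 128 in iCT, and 125, 90.6, 114 and 120.1 in relapse. The iCT mice were again highest, but 2 of the 3 exceeded the highest vehicle mouse by only a few FPKM. The difference from vehicle was 0.31 (95% interval 0.01 to 0.60, adjusted p = 0.158 by limma), and without iCT mouse 1 it was 0.14 (adjusted p = 0.542). Relapse against iCT gave -0.37 (adjusted p = 0.121). With median-of-ratios scaling it was -0.48 (adjusted p = 0.0444), and with length and GC trends removed -0.53 (adjusted p = 0.0434). The entry of Ggnbp1 overlaps all 8815 bases of Bak1. Strandedness is not given in the sources used here, so reads of the pair may be mixed; Ggnbp1 itself was listed at 0 to 3.46 FPKM.

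The balance of the pore formers differed among the iCT mice. Bax over Bak1 was 1.07 to 1.31 in vehicle and 1.05 to 1.47 in relapse. In iCT mice 2 and 3 it was 1.89 and 1.93, above all mice of the other groups. In iCT mouse 1 it was 0.980, below all of them.

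**Figure D3:**
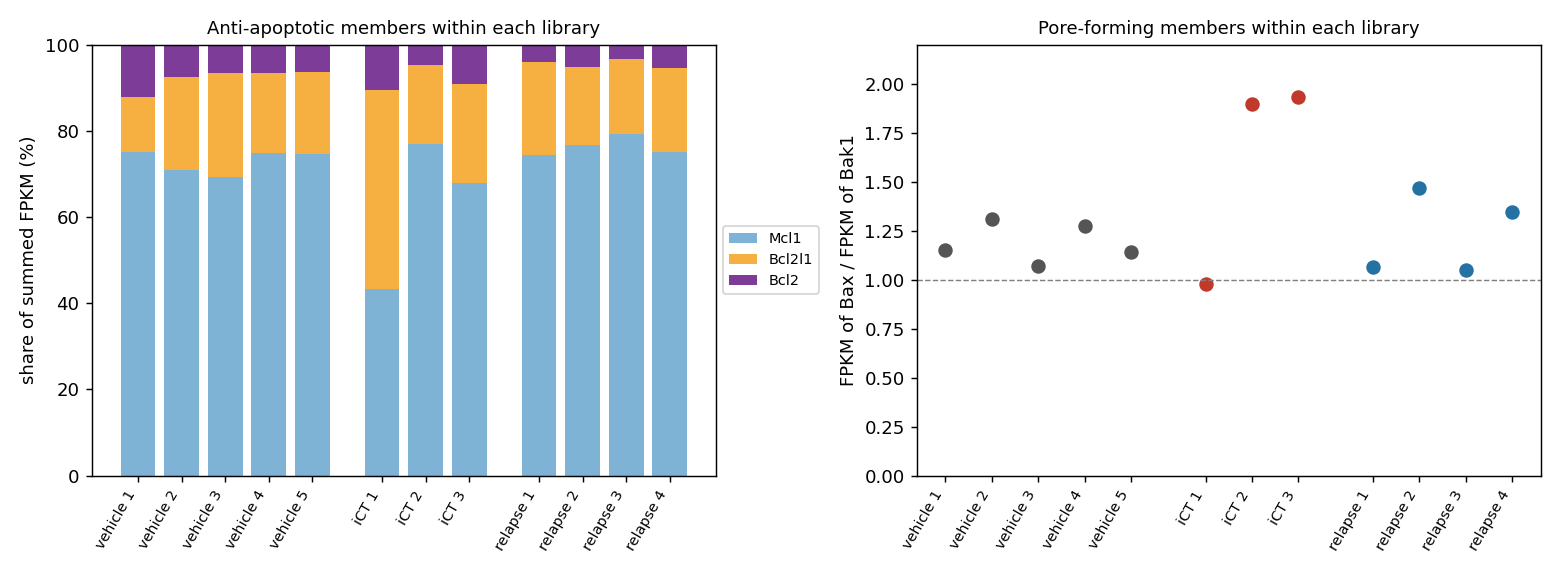
Left, bars give the share (%) of Bcl2, Bcl2l1 and Mcl1 in their summed FPKM for each mouse; right, points give the ratio of Bax to Bak1 FPKM, with a dashed line at 1. Mcl1 held 69.4% to 75.1% in vehicle, and iCT mouse 1 stands apart at 43.2% and a Bax to Bak1 ratio of 0.980.

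Among the anti-apoptotic members, Mcl1 was the most abundant in all groups except in iCT mouse 1, and 0 of 3 members were called in any comparison. At an unadjusted p under 0.05, 1 was higher in iCT against vehicle (Bcl2l1), against 10.6% of all genes. In relapse against vehicle 1 was lower (Bcl2), against 4.16% of genes. In relapse against iCT 2 were lower (Bcl2 and Bcl2l1), against 7.68% of genes. Mcl1 encodes a short-lived protein that restrains BAK and BIM (chr3:95658721-95663178). Its level was 51.6, 50.9, 52.7, 46.8 and 49.3 FPKM in vehicle, 50.5, 56.0 and 64.6 in iCT and 55.0, 43.9, 61.3 and 49.999 in relapse. The groups overlapped, and the mean moved little: 50.3 ± 2.30, 57.0 ± 7.11 and 52.6 ± 7.40 FPKM. The difference between iCT and vehicle was 0.17 (95% interval -0.08 to 0.43, adjusted p = 0.330), and between relapse and vehicle 0.05 (-0.18 to 0.29). Its coefficient of variation over the 12 libraries was 11.04%, and 6.3% of genes tested varied less.

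Bcl2l1 encodes BCL-XL (chr2:152758732-152831728; isoforms are not separated in the gene tables). It measured 8.72, 15.5, 18.3, 11.6 and 12.6 FPKM in vehicle, 54.2, 13.4 and 21.9 in iCT and 16.0, 10.4, 13.5 and 12.9 in relapse. The iCT mice differed widely: mouse 1 was the highest of all 12, and mouse 2 lay within the vehicle range. The interval of the value in mouse 1 was 38.0 to 70.3 FPKM, above the values of all other mice; this was also the library with the highest osteoclast marker sum (990 FPKM), whose part was not tested. The Cox4i2 entry overlaps 6306 bases of Bcl2l1 and was listed at 0 to 0.998 FPKM. The difference between iCT and vehicle was 0.91 (SE 0.35, adjusted p = 0.107 by limma). It was 0.38 without iCT mouse 1 (adjusted p = 0.411), and 1.35 without iCT mouse 2 (adjusted p = 0.0145). Relapse against iCT gave -0.90 (adjusted p = 0.129), -0.37 without iCT mouse 1 and -1.34 without iCT mouse 2 (adjusted p = 0.0246). Relapse and vehicle differed by 0.01 (95% interval -0.69 to 0.71).

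Bcl2, the founding anti-apoptotic gene and the target of venetoclax, spans chr1:106538178-106714290. The Mir3473f entry overlaps 136 bases of Bcl2 and was listed at 0 to 36.8 FPKM. Bcl2 itself measured 8.41, 5.35, 4.98, 4.09 and 4.26 FPKM in vehicle mice, 12.3, 3.37 and 8.61 in iCT mice, and 2.91, 2.96, 2.52 and 3.65 in relapse mice. All 4 relapse mice lay below all 5 vehicle mice, whereas the iCT mice were on both sides of the vehicle range. Among all genes tested, 4.03% were likewise lower in relapse without overlap, and Bcl2 was the 1 such member. The fitted difference between relapse and vehicle was -0.65 (SE 0.29, 95% interval -1.27 to -0.03, adjusted p = 0.327 by limma). The difference between iCT and vehicle was 0.40 (adjusted p = 0.403), 0.05 without iCT mouse 1 and 0.85 without iCT mouse 2 (adjusted p = 0.0288). Relapse against iCT gave -1.04 (adjusted p = 0.0607), -0.70 without iCT mouse 1 (adjusted p = 0.179) and -1.50 without iCT mouse 2 (adjusted p = 0.00408). That comparison also passed with quantile normalization (-1.24, adjusted p = 0.0349) and with length and GC trends removed (-1.25, adjusted p = 0.0276).

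Within a library, Mcl1 made up 69.4% to 75.1% of the summed anti-apoptotic FPKM in vehicle and 74.4% to 79.3% in relapse. In iCT its share was 43.2%, 77.0% and 67.9%, the lowest in mouse 1, where Bcl2l1 held 46.3%. Bcl2 made up 6.44% to 12.2% in vehicle and 3.26% to 5.49% in relapse. This restates the Bcl2 levels above, because the mean sum was 69.0 FPKM in vehicle and 68.7 in relapse. Bax over the anti-apoptotic sum was 1.70 to 2.53 in vehicle, 1.51, 3.37 and 2.61 in iCT and 1.55 to 2.43 in relapse, and the groups overlapped.

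The 5 BH3-only members gave 0 calls in all 3 comparisons. At an unadjusted p under 0.05, Bid alone was higher in relapse, both against vehicle (10.4% of all genes) and against iCT (21.3%). Between iCT and vehicle 0 of 5 differed, against 29.8% of genes. Bbc3 encodes PUMA, a BH3-only protein that binds every anti-apoptotic member (chr7:16309583-16318334). It measured 4.59, 5.05, 2.88, 6.69 and 4.65 FPKM in vehicle, 2.71, 6.13 and 6.81 in iCT and 6.18, 4.73, 6.14 and 4.96 in relapse. The vehicle range covered all but 2 of the treated mice, and the low iCT value had an interval of 0 to 6.55 FPKM. Its difference between iCT and vehicle was 0.07 (95% interval -0.50 to 0.64, adjusted p = 0.879). The upper end of that interval is close to the 0.67 of Bax. Without the shallow library the difference was 0.40 (adjusted p = 0.301).

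Pmaip1 encodes NOXA, which binds MCL1 and leads to its degradation (chr18:66458604-66465558). It measured 9.84, 5.63, 7.75, 7.69 and 8.22 FPKM in vehicle, 7.84, 10.9 and 10.4 in iCT and 7.40, 7.58, 8.21 and 6.88 in relapse. The deeper iCT libraries were the highest of the 12, and the shallow one lay within the vehicle range. The difference between iCT and vehicle was 0.29 (95% interval -0.08 to 0.65, adjusted p = 0.266 by limma). With length and GC trends removed it was 0.53 (adjusted p = 0.0316).

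Bcl2l11 encodes BIM, an activator of BAX and BAK that cytokine withdrawal induces (chr2:128126038-128162547). It stayed between 4.08 and 5.399 FPKM in all 12 mice, with group means of 4.79 ± 0.33, 4.99 ± 0.26 and 4.83 ± 0.59. Its coefficient of variation was 8.06%, and 1.3% of the genes tested varied less. The interval of the difference between iCT and vehicle was -0.25 to 0.35.

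Bid is cut by caspase-8 and links death receptors to mitochondria (chr6:120893119-120916820). It measured 41.2, 53.03, 52.3, 44.8 and 42.5 FPKM in vehicle, 52.7, 41.8 and 41.9 in iCT and 51.3, 57.0, 55.7 and 56.0 in relapse. The relapse mice were close together near the top of the range, and 3 of the 4 exceeded all other mice. The difference between relapse and vehicle was 0.24 (SE 0.11, adjusted p = 0.336 by limma), and 0.27 with array weights (adjusted p = 0.0455). Between relapse and iCT it was 0.28 (adjusted p = 0.156).

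Bad is held inactive by survival kinases that phosphorylate it (chr19:6941861-6951905). It measured 53.5, 58.2, 45.8, 48.6 and 50.3 FPKM in vehicle, 26.03, 55.6 and 55.7 in iCT and 49.7, 60.1, 50.8 and 55.4 in relapse. The 1 low value belonged to iCT mouse 1, with an interval of 6.09 to 46.0 FPKM. Its difference between iCT and vehicle was -0.23 (adjusted p = 0.454), and 0.12 without that mouse (adjusted p = 0.562). The Gpr137 entry overlaps 590 bases of Bad and was listed at 8.86 to 14.9 FPKM.

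In relapse against vehicle, 0 of 10 members and 0% of all genes passed the threshold of limma. With other fits over the whole table, 612 genes passed when only these 2 groups were fitted, 971 with array weights (with 1 member, Bid) and 87 with precision weights. At an unadjusted p under 0.05, 1 member was higher (Bid) and 1 lower (Bcl2), against 10.4% and 4.16% of genes. The median difference of the members was 0.01, and that of all genes 0.06. In relapse against iCT, 1 of 10 members fell (Bax) and 0 rose, against 3.1% and 6.62% of genes (9.72% in all). Of the called genes 68.1% were higher in relapse, and 48.8% with median-of-ratios scaling, 50.6% with quantile normalization and 44.0% with length and GC trends removed. At an unadjusted p under 0.05, 1 member was higher and 4 were lower, against 21.3% and 7.68% of genes. Relapse mice lay wholly below iCT mice in Bax and Bak1, against 6.33% of genes. The median difference was -0.22 over the members and 0.16 over all genes. The median of all genes moved to 0.06 with median-of-ratios scaling and to 0.02 with quantile normalization. The comparisons share their iCT or vehicle mice, so a high value in iCT enters both comparisons that use it.

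For the 3 members with the smallest p over the groups, the genes most like them were taken by Pearson correlation of log2(FPKM + 1) over the 12 libraries. The libraries share depth and group as sources of likeness. Candidates needed a mean of at least 5 FPKM in some group. Bax was most like D8Ertd738e (r = 0.945) and Ccnd2, which encodes cyclin D2 (r = 0.929). These were 0.944 and 0.929 when iCT mouse 1 was left out. Ccnd2 passed the 5 FPKM limit only in iCT (5.18 FPKM, against 1.105 in vehicle and 1.13 in relapse), where Bax was also high. Its likeness to Bax was thus partly set by that limit. Bcl2 was most like Qsox2 (0.982) and Mapk1ip1l (0.980), with 0.970 and 0.971 without that mouse. Bcl2l1 was most like Ptpn9 (0.949) and Ddx58 (0.946), which encodes the RNA sensor RIG-I; without that mouse these were 0.835 and 0.801.

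The rest of the apoptosis pathway was read from 10 lists of 123 entries. The p53 list, which held targets other than the members, had 24 of 29 genes tested. In iCT against vehicle 9 rose and 1 fell, with a median of 0.29, and in relapse against iCT 0 rose and 7 fell. Over all genes tested, 3.31% rose and 6.31% fell in the first comparison, and 6.62% rose and 3.1% fell in the second. The cell cycle inhibitor Cdkn1a rose by 2.48 and fell by 2.23 on the log2 scale (adjusted p = 4.89e-05 and 0.000139 by limma). Phlda3, an inhibitor of AKT signalling, rose by 4.59, and Zmat3, an RNA-binding protein, by 2.22. Both were under 1 FPKM in every vehicle mouse (0.111 to 0.642 and 0.379 to 0.536), so these sizes depend on the processing. With all libraries kept, the alternatives gave 4.52 to 6.17 and 2.17 to 3.39. Zmat3 reached 1 FPKM in 3 or more libraries only through iCT, so the direction of its rise, counted among the 9, was fixed by the filter. Trp53 itself measured 109.8 ± 13.1, 119.7 ± 7.62 and 119.7 ± 10.4 FPKM, a difference of 0.13 between iCT and vehicle (adjusted p = 0.445). Mdm2, the ubiquitin ligase for p53 and itself a target, differed by 0.46 between iCT and vehicle (adjusted p = 0.149). It fell by 0.82 in relapse against iCT (adjusted p = 0.0311), a call lost without iCT mouse 1 or relapse mouse 2, 3 or 4. Beside these targets, Bax rose by 0.67, and the BH3-only targets Bbc3 and Pmaip1 differed by 0.07 and 0.29 without passing the test. In iCT mouse 1 these 2 rested on 2.0 and 8.0 implied fragments. With each library left out they ranged from -0.13 to 0.40 and from 0.19 to 0.42. With length and GC trends removed, Bbc3 was -0.077 and Pmaip1 passed at 0.53 (adjusted p = 0.0316 by limma).

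**Figure D4:**
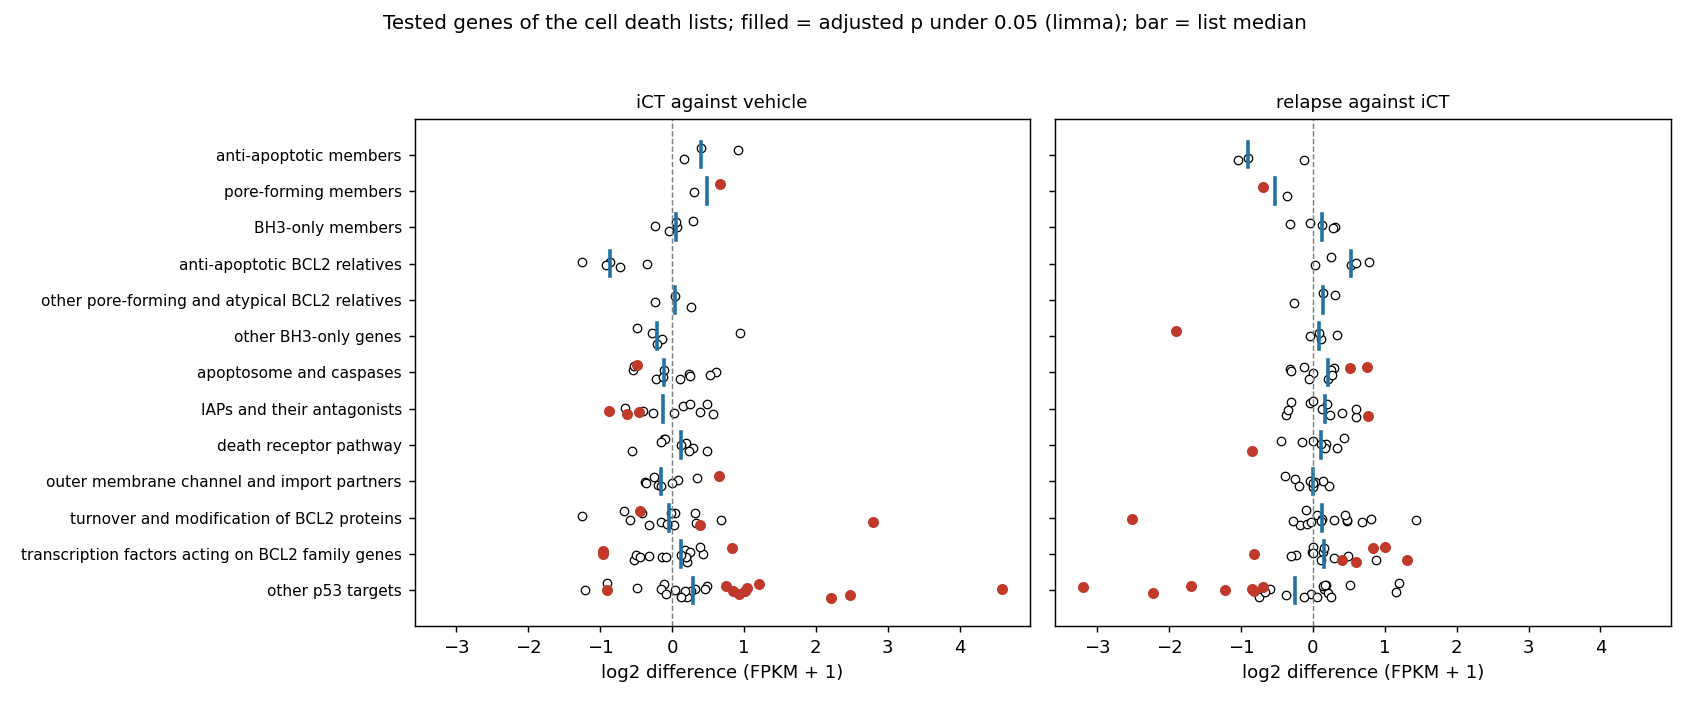
Fitted log2 difference of each tested gene of the members and the 10 pathway lists (points), with a bar at the list median; filled points passed an adjusted p of 0.05. Filled points to the right in iCT against vehicle are mostly p53 targets, and Pim1 stands alone at 2.80 among the genes of BCL2 protein turnover.

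Among the 16 tested genes that modify or degrade BCL2 family proteins, 2 rose and 1 fell in iCT against vehicle. The shares over all genes were 3.31% and 6.31%. Pim1 encodes a kinase that phosphorylates BAD. It measured 4.07, 7.22, 12.7, 10.3 and 8.52 FPKM in vehicle, 62.0, 58.3 and 66.7 in iCT and 6.26, 10.1, 10.3 and 15.5 in relapse. The iCT mice lay close together and far above all others. Pim1 rose by 2.80 (SE 0.30, adjusted p = 0.000323 by limma) and fell by 2.51 in relapse (adjusted p = 0.00107). Both calls held in 23 of 23 alternatives. Akt1 rose by 0.39 (adjusted p = 0.0392), and Ppp3ca, a catalytic subunit of calcineurin, fell by 0.45 (adjusted p = 0.0470). Their calls held in 12 and 5 of 23 alternatives; that of Akt1 was lost without vehicle mouse 1, 3, 4 or 5, iCT mouse 1 or 3, or relapse mouse 1 or 2, and that of Ppp3ca without any 1 of vehicle mice 1, 3, 4 and 5, iCT mice 1 and 2 and relapse mice 1 to 4.

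Of 17 transcription factors known to act on BCL2 family genes, 1 rose and 2 fell in iCT against vehicle. Over all genes 3.31% rose and 6.31% fell. Atf4, an effector of the integrated stress response, rose from 75.6 ± 8.13 to 142 ± 59.0 FPKM (log2 0.84, adjusted p = 0.0214). Its difference was 0.52 without iCT mouse 1, and the call held. Cebpa, a regulator of granulocyte development, fell from 53.8 ± 6.23 to 27.8 ± 7.23 FPKM (fell by 0.95, adjusted p = 0.00648) and was 55.8 ± 8.79 in relapse. Stat5b, a cytokine signal transducer, fell from 13.7 ± 1.42 to 6.99 ± 3.22 FPKM (fell by 0.96, adjusted p = 0.0260). The call of Stat5b was lost without vehicle mouse 2, 3, 4 or 5 or iCT mouse 1. In relapse against iCT 5 factors rose and 1, Atf4, fell, against 6.62% and 3.1% of all genes. Without iCT mouse 1 Atf4 fell by 0.51 in place of 0.82. The 5 were Cebpa, Stat5b, Stat5a, Runx1 and Nfkb1, of which Cebpa and Stat5b held their call without each library in turn. The calls of Atf4, Stat5a, Runx1 and Nfkb1 were lost without at least 1 of the libraries: relapse mouse 2, 3 or 4 for Atf4; vehicle mouse 5, iCT mouse 1 or any relapse mouse for Stat5a; iCT mouse 1 or any relapse mouse for Runx1; vehicle mouse 4 or 5, iCT mouse 2 or any relapse mouse for Nfkb1.

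Among the 11 genes of the apoptosome and caspases, 0 rose and 1 fell in iCT against vehicle. For this and the next 2 lists, the shares over all genes were 3.31% higher and 6.31% lower. Casp8, the initiator caspase of death receptors, went from 39.7 ± 2.32 to 28.2 ± 5.26 FPKM (adjusted p = 0.0290 by limma). Its call was lost without vehicle mouse 2, 3 or 5 or iCT mouse 1 or 3. Of 12 inhibitor of apoptosis genes and their antagonists 0 rose and 3 fell. Birc2, which encodes the ubiquitin ligase cIAP1, fell by 0.87 (adjusted p = 0.0254), a call lost without vehicle mouse 2 or 3 or iCT mouse 1. Naip2 and Naip5 are close paralogs whose reads may be split between them; they fell by 0.46 and 0.62, and their calls held in 12 of 23 and 9 of 22 alternatives. The call of Naip2 was lost without vehicle mouse 1, 3 or 5, iCT mouse 1 or relapse mouse 1, 2 or 3, and that of Naip5 without vehicle mouse 1, 2, 3, 4 or 5, iCT mouse 1 or relapse mouse 2 or 3. Of 9 outer membrane channel and import genes 1 rose: Tomm40, the channel of protein import, went from 86.8 ± 13.1 to 137 ± 26.4 FPKM (adjusted p = 0.0176), a call lost without iCT mouse 1. In iCT against vehicle, the calls of Akt1, Ppp3ca, Atf4, Stat5b, Casp8, Birc2, Naip2, Naip5 and Tomm40 were each lost when only the 2 groups were fitted, with array weights and with a replicate block. Those of Pim1, Cebpa, Cdkn1a, Phlda3 and Zmat3 were kept under all 3, but Zmat3 entered the test only through iCT, which fixed the direction of its difference.

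No call was made by limma in iCT against vehicle among 5 anti-apoptotic relatives, 3 other pore-forming or atypical relatives, 5 other BH3-only genes and 9 death receptor genes (0 in each). Over all genes 9.62% were called. At an unadjusted p under 0.05, 1 relative was lower and 1 BH3-only gene higher, against 19.2% and 10.6% of all genes. Of the 5 anti-apoptotic relatives, 4 are near-identical copies of Bcl2a1, so their split is uncertain. In relapse against iCT, Hrk, a BH3-only gene, fell by 1.91 (adjusted p = 0.0126). Among the caspase and inhibitor genes, Casp8 rose by 0.52, Naip5 by 0.77 and Dffa, the inhibitor of the caspase-activated DNase, by 0.76. Of the death receptor genes Fas fell by 0.86. The call of Fas held in 7 of 23 alternatives, and it was lost without vehicle mouse 3, 4 or 5, any iCT mouse or relapse mouse 1, 2 or 4. That of Casp8 was lost without iCT mouse 1 or 3 or relapse mouse 1, 2 or 4, that of Dffa without relapse mouse 1, 3 or 4, and that of Naip5 without relapse mouse 4. Each of the 10 lists gave 0 calls in relapse against vehicle.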

How the data were processed

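RNA-seq of sorted GFP-positive cells was measured in 12 mice, 1 library each. The authors deposited Cufflinks gene tables in FPKM with 95% interval bounds, per the file headers. The submitters' processing notes name STAR and Cufflinks without versions. The notes name mm9, but 99.3% of 22918 single-locus symbols overlapped the GRCm38.p6 gene of the same name, so GRCm38 coordinates are given, 1-based. Implied fragments are the square of 2 × FPKM over the distance to the upper bound and cover counting error only. 2 entries with a failed estimate were left out.

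Genes that reached 1 FPKM in 3 or more libraries entered the test as log2(FPKM + 1) in 1 model of all 12 libraries with limma 3.58.1 in R 4.3.3 (variance trend, group as the only term). The added 1 understates changes of low genes. P-values were adjusted by Benjamini-Hochberg over 11019 genes (threshold 0.05). The procedure was tested on simulated data in which each gene had the same spread in every library, so a shallow library such as iCT mouse 1 was not covered. Members and lists were chosen with earlier results of these data known. All members are named, with up to 3 called genes per list by smallest p in iCT against vehicle, and Trp53, Cdkn1a and Mdm2; list genes called only in relapse against iCT (Hrk, Dffa, Fas, Stat5a, Runx1 and Nfkb1) were named after their values were seen. The 23 alternatives covered pseudocount, filter, scaling, weights, groups fitted, a replicate block, length and GC trends, and each library left out.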

Additional observations from a re-analysis of the deposited data

How the results depend on the processing

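Of 690 member differences recomputed over 23 alternatives, 628 kept their direction and side of the threshold, 49 changed sign, 10 newly passed and 3 no longer passed. The cause was not tested. Members called in iCT against vehicle numbered 0 when only the groups compared were fitted and 2 with length and GC trends removed (Bax and Pmaip1), and 1 to 3 with each library left out. In relapse against vehicle, 1 was called with array weights (Bid), and 0 to 0 with each library left out. In relapse against iCT, 2 were called with median-of-ratios scaling and with quantile normalization, 0 with only the groups compared and 3 with length and GC trends removed, and 0 to 3 with each library left out.

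Over the whole table, genes called in iCT against vehicle (1060) numbered 457 with array weights and 351 with only the groups compared, and 569 to 2722 with each library left out. In relapse against vehicle (0) they numbered 1 without the filter, 971 with array weights, 87 with precision weights, 612 with only the groups compared and 2 with length and GC trends removed, and 0 to 5 with each library left out. In relapse against iCT (1071) they numbered 603 with array weights and 252 with only the groups compared, and 529 to 1855 with each library left out. With length and GC trends removed, 663 of 10595 genes were called higher and 626 lower in iCT against vehicle. In relapse against iCT that setting called 487 higher and 621 lower. Median-of-ratios scaling there called 490 of 10986 higher and 514 lower, and quantile normalization 431 of 11019 higher and 420 lower.

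Deviations from group means correlated at -0.091 to 0.099 over 10 same-number pairs of mice, and at -0.116 to 0.148 over other pairs. These values cannot exclude a pairing, and the labels do not state whether equal mouse numbers pair the samples. With a replicate block on these numbers, 197 genes were called in iCT against vehicle and 372 in relapse against iCT, and the member counts were 1, 0 and 1 as without it; Bcl2l1 in relapse against vehicle was -0.00045.

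Sign changes, all in uncalled differences, were as follows. With length and GC trends removed, iCT against vehicle gave -0.077 for Bbc3 and 0.054 for Bid, and relapse against vehicle -0.12 for Bcl2l1, -0.013 for Mcl1, -0.13 for Bcl2l11, -0.045 for Bbc3 and 0.097 for Pmaip1. With median-of-ratios scaling, Bid in iCT against vehicle was 0.0028, and in relapse against vehicle Bcl2l1 was -0.058, Mcl1 -0.018 and Bcl2l11 -0.054. With quantile normalization, relapse against vehicle gave -0.064 for Bcl2l1, 0.016 for Bax and -0.098 for Bcl2l11, and relapse against iCT -0.12 for Bbc3. With array weights, Bad in iCT against vehicle was 0.064, Bcl2l1 and Bcl2l11 in relapse against vehicle -0.033 and -0.017, and Bbc3 in relapse against iCT -0.18. With precision weights, Bad in iCT against vehicle was 0.042, Bcl2l11 in relapse against vehicle -0.015 and Bbc3 in relapse against iCT -0.17.

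With each library left out, signs also changed within these ranges. In iCT against vehicle they were -0.13 to 0.40 for Bbc3, -0.15 to 0.013 for Bid and -0.41 to 0.12 for Bad. In relapse against vehicle they were -0.12 to 0.13 for Bcl2l1, -0.023 to 0.13 for Mcl1, -0.10 to 0.042 for Bax, -0.11 to 0.039 for Bak1, -0.039 to 0.072 for Bcl2l11 and -0.13 to 0.043 for Pmaip1. In relapse against iCT they were -0.089 to 0.022 for Bcl2l11, -0.21 to 0.33 for Bbc3 and -0.047 to 0.49 for Bad. Depth limits the values of iCT mouse 1, where Bbc3, Bcl2l11, Bad and Pmaip1 each rest on 8.0 or fewer implied fragments.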
